A study of Homo sapiens with 2 samples.

Results

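SPTBN1 encodes βII-spectrin, and the exon rows described here are those of its long and short isoforms in Huh-7 cells, an established human hepatocellular carcinoma line. The gene was represented by 39 of the 239322 exon rows listed in the data, an exon row being 1 exon interval, given by its coordinates, with the number of reads counted on it. Its rows were those on the plus strand of chromosome 2 inside the span of SPTBN1 on hg19, and the gene was selected on the measured change of a single row, the long terminal row at chr2:54887073-54889444, against its neighbours in the same libraries. The size of that change is therefore a description and was not tested. Rows are numbered 1 to 39 from the 5′ end, so that the terminal row is row 35, with 34 rows before it and 4 after it.

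Huh-7 cells were kept in 0.1% DMSO (control) or in 0.1 mM BS008, an amiloride derivative, for 24 h, and mRNA-seq libraries were made from total RNA. Whether the BS008 cells also had DMSO is not stated in their treatment label. Each condition had 1 library, so no p-value is given, and every interval below covers the counting of reads only. Reads on exons summed to 55476654 in the control library and 53578432 in the BS008 library, of which 40219 and 55817 lay on SPTBN1. The limit that a count of 0 allows (3 reads) was 5.4e-06% and 5.6e-06% of the library. Fewer cells and less RNA per cell cannot be told apart in such libraries. Of 8 liver markers 7 were found, with at least 242 reads in each library (ALB had 245670 and 278132), and 2 of them, APOB and HNF4A, were past 2-fold lower after BS008, with log2 ratios of -1.15 and -1.36 on CPM values with a pseudocount of 0.5, against 5.69% of the 11081 genes compared. In contrast, PTPRC, a blood cell marker, had 0 reads in each (at most 3 reads in a library) and COL1A1, a fibroblast marker, had 13 and 4.

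Spectrins are long, flexible proteins that form a mesh under the cell membrane. An α and a β subunit pair along their spectrin repeats, the amino end of the β subunit binds actin, and ankyrins and adducins connect the mesh to membrane proteins and to actin ends. βII-spectrin is the widely expressed β subunit outside red blood cells, and in the liver it is also known as an adaptor of SMAD proteins in TGF-β signalling. The long isoform ends in a pleckstrin homology domain, which binds membrane lipids, and the short isoform ends before it.

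The isoforms differ at both ends. In GENCODE release 29, the short transcript (SPTBN1-201, 31 exons, 2155 residues) starts at a first exon of its own, of 494 bases. The long transcript (SPTBN1-202, 36 exons, 2364 residues) starts further upstream and carries its start codon in exon 2. At the 3′ end, exon 31 of the short transcript opens at the same base as exon 32 of the long one, which is 64 bases long. In the short transcript this exon is not spliced at its end but runs on to a length of 2373 bases. The coding bases at this point are shown because they are where row 35 and the rows after it part, with lower case for shared bases (the last 30 of the exon before and the 64 of the common exon) and capitals for the bases of 1 isoform (all 84 coding bases that follow in the short transcript, the first 60 of the next exon in the long one). The coding part of the short exon lies at chr2:54659936-54660083 and the common exon of the long transcript at chr2:54659936-54659999, both on the plus strand of GRCh38, with the next exon at chr2:54664453-54664691.
SPTBN1-201, short: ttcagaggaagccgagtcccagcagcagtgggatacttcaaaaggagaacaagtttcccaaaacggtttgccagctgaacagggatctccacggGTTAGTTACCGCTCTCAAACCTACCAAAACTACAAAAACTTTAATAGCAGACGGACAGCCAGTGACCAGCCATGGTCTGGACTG
SPTBN1-202, long: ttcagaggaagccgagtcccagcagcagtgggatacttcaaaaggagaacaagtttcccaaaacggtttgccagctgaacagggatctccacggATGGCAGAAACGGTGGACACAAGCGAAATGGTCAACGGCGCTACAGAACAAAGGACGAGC

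The extension of the short exon opens with gt, the bases at which the long transcript splices. It adds 28 codons before a stop, in place of 224 codons of the long transcript, among them those of the pleckstrin homology domain. At the 5′ end, the first coding bases of each isoform are given from the start codon, in capitals, to the end of the exon. They lie at chr2:54558779-54558887 (short, exon 1) and chr2:54526419-54526566 (long, exon 2) on GRCh38.
SPTBN1-201, short: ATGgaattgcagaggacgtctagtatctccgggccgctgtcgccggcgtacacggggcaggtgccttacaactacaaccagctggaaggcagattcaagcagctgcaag
SPTBN1-202, long: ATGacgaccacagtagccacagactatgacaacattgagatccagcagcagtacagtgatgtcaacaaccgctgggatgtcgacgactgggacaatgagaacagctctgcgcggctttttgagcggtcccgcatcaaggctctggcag

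Of the 39 exon rows, 36 had the length and spacing of an exon annotated for SPTBN1, by lengths alone and with no coordinates carried between builds. The 3 others were rows 4, 33 and 35. Rows 1 and 3 were exons 1 and 2 of the long isoform (row 1, like row 39, with the length given for SPTBN1-207, a long transcript of 38 exons and 2366 residues), row 5 was the first exon of the short isoform, 27 rows were exons of both, and rows 36 to 39 were the last exons of the long isoform. Row 35 was 1 base shorter than the last exon of the short isoform. It also holds the 64 bases common to both isoforms, 2.70% of its length, so that reads of the long isoform on those bases are counted in it. Rows 30 and 33 were longer than the exons of both isoforms that they contain, row 30 holding an exon of 245 bases in 1336. Row 2 was the first exon of a further transcript, SPTBN1-203, and row 4 was no annotated SPTBN1 exon. No member row overlapped another row of its strand, and no row of the minus strand lay in the span.

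The terminal row of the short isoform (chr2:54887073-54889444, row 35) had 2950 control reads and 10697 BS008 reads. Per library total it was 3.75-fold higher after BS008 (95% counting interval 3.60 to 3.91), and its RPKM (reads scaled to exon length and library total) went from 22.4 to 84.2. On the log2 scale, with a pseudocount of 0.5 on CPM values (reads scaled to the library total), the ratio was 1.90, above that of 99.4% of the exon rows with at least 10 reads in either library. It was the only SPTBN1 row past 2-fold in either direction among the 38 with at least 10 reads. Over all 131330 rows with at least 10 reads, 3.73% had a ratio of 2 or more after BS008, and 3.79% were past 2-fold in the other direction. Since the gene was picked for this row, nothing is read from that count.

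The 3 rows before it, which hold exons of both isoforms, were higher by far less. Row 34 (chr2:54886291-54886403) had 1671 control and 1851 BS008 reads, a ratio of 1.15 (1.07 to 1.23). Row 33 (chr2:54884959-54885183) had 1814 and 2387 reads, a ratio of 1.36 (1.28 to 1.45). Row 32 (chr2:54883051-54883135) had 721 and 934 reads, a ratio of 1.34 (1.22 to 1.48). None of these intervals reached that of row 35, but the gene was chosen on this contrast, so nothing is read from it.

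The rows after it, which only the long isoform has, were all lower in BS008-treated cells. Row 36 (chr2:54891590-54891828) had 2008 control and 1682 BS008 reads, a ratio of 0.867 (0.812 to 0.926). Row 37 (chr2:54893052-54893225) had 1401 and 1193 reads, a ratio of 0.882 (0.816 to 0.953). Row 38 (chr2:54894741-54894783), the shortest of the gene at 43 bases, had 1030 and 864 reads, a ratio of 0.869 (0.793 to 0.952). These adjoining rows thus differed in the same direction and by nearly the same factor. A read that crosses exons may have been counted on each of them, so these rows may share reads and are not separate observations. The last row, row 39 (chr2:54895488-54898582), which holds the long 3′ end, had 6173 and 5426 reads, a ratio of 0.910 (0.877 to 0.944).

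**Figure D1:**
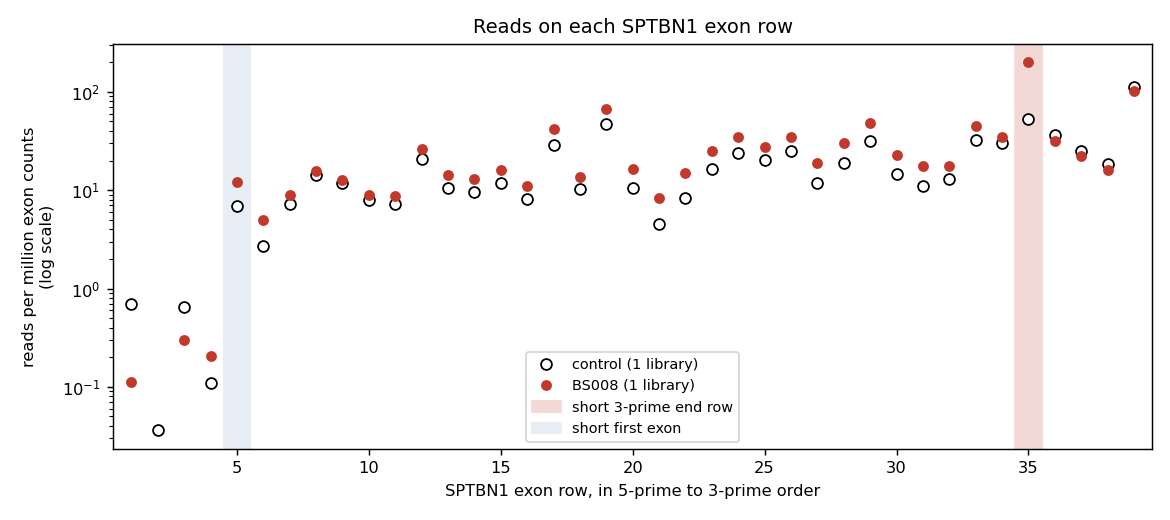
CPM (log scale) on each SPTBN1 exon row, in order from the 5′ end, with 1 open point for the control library and 1 filled point for the BS008 library. Row 35, the terminal row of the short isoform, stands at 53.2 for the control and 199.7 for the BS008 library, and the 4 rows after it are lower after BS008. Row 2 had 0 reads after BS008 and shows the control point alone.

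Summed over the gene, SPTBN1 reads per library total were 1.44-fold higher in BS008-treated cells (1.42 to 1.46). The log2 ratio of 0.52 exceeded that of 80.9% of the 11081 genes that could be found by exon lengths and had at least 10 reads. That rank sets unlike sums side by side, because the SPTBN1 sum holds row 35, on which the gene was chosen. The sums of the 11081 genes hold only rows matched by length, which row 35 was not. Row 35 alone did not make up the 1.44-fold difference. The other 38 rows together went from 37269 to 45120 reads, a ratio of 1.25 (1.24 to 1.27) and a log2 ratio of 0.33. The 34 rows before row 35 had 26657 and 35955 reads, a ratio of 1.40 (1.37 to 1.42), and the 4 rows after it 10612 and 9165, a ratio of 0.894 (0.870 to 0.920). Rows before and rows after thus lay on opposite sides of 1. The median log2 ratio of the tested rows was 0.44 before and -0.19 after row 35, against -0.041 over all exon rows tested.

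The 27 rows found in both isoforms were all higher in BS008-treated cells, but not evenly along the gene. Their log2 ratios ran from 0.10 to 0.80, and the counting intervals of rows 9 and 10 included a ratio of 1. Row 6 (chr2:54826229-54826380), the first row of both isoforms, had 150 and 264 reads, a ratio of 1.82 (1.49 to 2.24). A few rows on, row 9 (chr2:54844745-54844825) had 654 control and 679 BS008 reads, a ratio of 1.08 (0.964 to 1.20). In the middle of the gene, row 21 (chr2:54864850-54864940) had 252 and 445 reads, a ratio of 1.83 (1.56 to 2.14), and row 22 (chr2:54870120-54870266) had 464 and 793, a ratio of 1.77 (1.58 to 1.99). Rows 9 and 21, within the stretch that the annotated isoforms share, had the lowest and the highest ratio of the 27 rows. Their counting intervals did not overlap, but a pair picked as the extremes is no test of evenness. Row 34 was again among the lowest, and the ratio therefore stepped from 1.15 to 3.75 and then to 0.867 over 3 neighbouring rows.

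**Figure D2:**
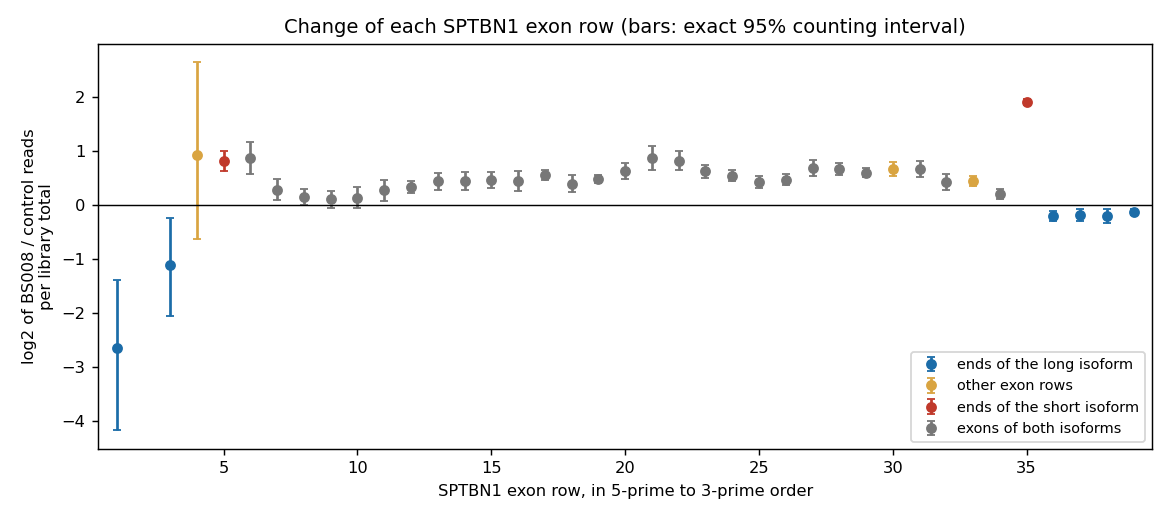
Change of each SPTBN1 exon row, as log2 of the ratio of BS008 to control reads per library total without a pseudocount, against row number from the 5′ end, with bars for the exact 95% counting interval and colours for the isoform that holds the row. The terminal row of the short isoform stands above all other rows, the exons of both isoforms lie above 0 (with bars of rows 9 and 10 that reach it), and the ends of the long isoform lie below 0. Row 2, with 0 reads after BS008, is left out.

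The 5′ ends showed differences in the same directions as the 3′ ends. The first exon of the short isoform (row 5, chr2:54785531-54786024) had 383 control and 654 BS008 reads, a ratio of 1.77 (1.56 to 2.01). Unlike row 35, it did not stand out from the 27 rows of both isoforms. With the pseudocount its log2 ratio of 0.78 lay within their range of 0.10 to 0.80. Exon 1 of the long isoform (row 1, chr2:54683454-54683655) had 39 and 6 reads, a ratio of 0.159 (0.055 to 0.379). Exon 2 of the long isoform (row 3, chr2:54753509-54753703), which carries its start codon, had 36 and 16 reads, a ratio of 0.460 (0.238 to 0.851). The ratio of the short first exon thus lay above 1 and those of both long 5′ exons below 1, but the long exons rest on few reads. With the pseudocount of 0.5, which understates changes of rows with few reads, the log2 ratios were 0.78 for row 5, -0.98 for row 1 and -0.52 for row 3, and none of them was past 2-fold. Rows 1 and 3 together had 75 and 22 reads, a ratio of 0.304 (0.180 to 0.494). Their log2 ratio was -1.02, past 2-fold, and -0.995 with TMM factors, a scaling over all exon rows, which is not. Row 2 had 2 control and 0 BS008 reads, and row 4, which matched no SPTBN1 exon, had 6 and 11, a ratio of 1.90 (0.644 to 6.25).

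The first exons of the isoforms lie far apart, and each has an annotated start of its own. The 250 bases before each start, from RefSeq on GRCh38.p14 (plus strand), are shown since the exons they precede differed in opposite directions. Capitals mark the GC box letters GGGCGG on either strand. The window of the long isoform is chr2:54456077-54456326 and that of the short isoform chr2:54558133-54558382.
Long isoform: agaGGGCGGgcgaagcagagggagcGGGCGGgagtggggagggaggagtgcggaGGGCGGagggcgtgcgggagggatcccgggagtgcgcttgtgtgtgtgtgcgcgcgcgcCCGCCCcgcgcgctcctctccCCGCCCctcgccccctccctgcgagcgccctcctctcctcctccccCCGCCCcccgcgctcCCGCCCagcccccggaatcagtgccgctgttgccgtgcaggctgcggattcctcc
Short isoform: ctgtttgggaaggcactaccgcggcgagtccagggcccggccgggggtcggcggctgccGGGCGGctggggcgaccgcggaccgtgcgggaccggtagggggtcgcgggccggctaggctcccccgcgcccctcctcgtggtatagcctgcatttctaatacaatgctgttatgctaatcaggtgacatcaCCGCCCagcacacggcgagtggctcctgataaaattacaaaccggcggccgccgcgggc

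The long window had 7 matches of GGGCGG and the short one 2, and 42.6% of the 35116 promoter windows of this length in the same table hold at least 1 match. TATAAA, searched on both strands as well, was in neither window and is in 10.7% of all. Both windows were GC-rich, at 77.2% for the long and 68.4% for the short isoform, with 30 and 29 CG pairs, against a median of 58% and 11 over all windows. These matches describe the sequence and were not tied to the reads by any test.

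The share of the short ends was computed from reads per base. Row 35 held 29.4% (95% Wilson interval 28.5 to 30.2%) of the reads per base on itself and the 4 rows after it in the control library, against 63.6% (63.0 to 64.2%) after BS008. This is a difference of 34.2 percentage points in a measure for which the gene was chosen. The level depended on the rows used for comparison. Without row 39, the shares were 11.3% (10.9 to 11.8%) and 35.5% (34.6 to 36.3%). Against row 39 alone, they were 38.4% (37.4 to 39.4%) and 72.0% (71.3 to 72.7%). Reads per base also differed with the length of a row. Exons of both isoforms under 100 bases had a median of 152.9 RPKM in control cells and those over 200 bases 62.9. At the 5′ end, row 5 held 80.4% (76.2 to 84.0%) of the reads per base on itself and rows 1 and 3 in control cells and 96.0% (94.0 to 97.3%) after BS008.

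In control cells the short end was thus the larger part at the 5′ end and the smaller part at the 3′ end. Counts on separate exons do not show which first exon was joined to which last exon, so the number of molecules of each full isoform was not measured. Past its first 64 bases, row 35 lies in an intron of the long transcript. Any reads of unspliced RNA there were counted with the short end. The reads of the long isoform on the first 64 bases of row 35 could not be counted apart. Taking the reads of row 38, the long row nearest in length to them, off row 35 left 1920 control and 9833 BS008 reads, a ratio of 5.30, given without an interval. This subtraction was chosen after the values had been seen.

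**Figure D3:**
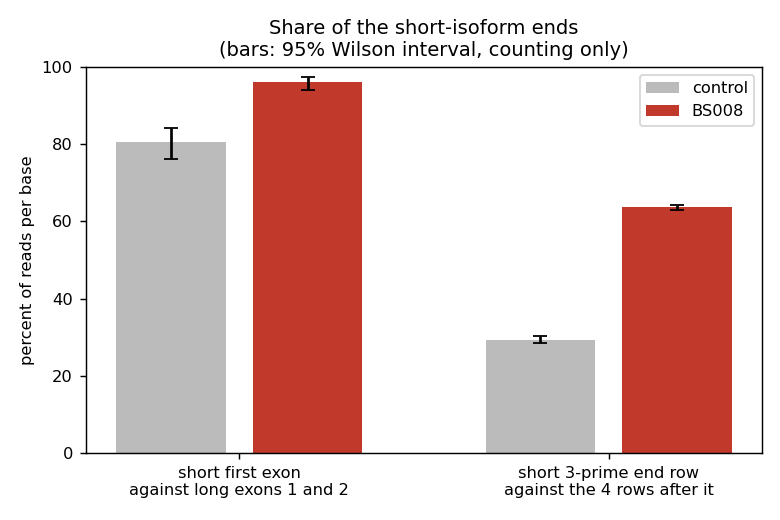
Percent of reads per base held by the ends of the short isoform in the control and BS008 libraries, with bars from 0 and 95% Wilson intervals for counting error. The first exon (row 5 against rows 1 and 3) went from 80.4% to 96.0%, and the terminal row (row 35 against rows 36 to 39) from 29.4% to 63.6%.

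Row 35 was set against the rest of the genome by a search for exon rows at least 2-fold higher after BS008 than the 5 rows before them, with the 5 rows after them lower than the 5 before. The search took rows with at least 100 reads in the higher library and gaps of at most 100 kb between neighbours on a strand. In SPTBN1 the log2 ratio of row 35 exceeded that of the rows before it by 1.47, and the rows after it were below the rows before by 0.59 (a difference of -0.59). Only 4 rows of the gene follow row 35, so that the fifth row of the window lay outside it, with 11 control reads and 2 BS008 reads. Of 50311 rows searched, 158 (0.314%) had this pattern, and row 35 was 73rd among them by its excess over the rows before it. The search followed the contrast for which the gene was chosen, so nothing is read from row 35 having the pattern. The 3 nearest in both differences were chr7:100953765-100954266 on the plus strand, with 109 and 255 reads, chr12:110385869-110386651 on the minus strand, with 17 and 108, and chr10:106061962-106064704 on the plus strand, with 6 and 107. These rows had far fewer reads than row 35. Like row 35 itself, none of them was matched to a gene by lengths, which does not show that they lie outside genes. Likeness here is over 2 libraries.

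Other genes of the membrane skeleton were found by the run of their exon and intron lengths and summed over their rows. SPTAN1, the αII-spectrin that pairs with βII-spectrin, was lower after BS008, with 18672 and 13601 reads and a ratio of 0.754 (0.738 to 0.771). Summed SPTBN1 reads were thus higher, at a ratio of 1.44 with row 35 and 1.25 without it, while those of SPTAN1 were lower. The SPTAN1 sum holds only rows matched by length. The 4 SPTBN1 rows after row 35 were lower as well, at 0.894. Other β subunits had few reads, with 0 and 23 reads for SPTBN4, 6 and 29 for SPTBN5 and 28 and 40 for SPTB.

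Of the adducins, which cap actin ends at the spectrin mesh, ADD1 had 4421 and 2542 reads, a ratio of 0.595 (0.567 to 0.625), ADD3 had 3799 and 2625, a ratio of 0.715 (0.680 to 0.752), and ADD2 had 0 and 1. The ankyrins, adaptors of membrane proteins, had few reads, with 329 and 494 for ANK2, 88 and 76 for ANK3 and 19 and 2 for ANK1. In the protein 4.1 family, which strengthens the contact of spectrin with actin, EPB41L2 had 6615 and 4689 reads, EPB41 2003 and 1679, EPB41L1 172 and 106, and EPB41L3 0 in each library. On the log2 scale with the pseudocount, which understates genes with few reads such as ANK1 and SPTBN5, no gene named here from these lists was past 2-fold. Of the 11081 genes, 6.72% had a ratio of 2 or more on that scale and 5.69% were past 2-fold in the other direction. The 2 adducins and 3 protein 4.1 genes with at least 10 reads were lower after BS008, as were 50.8% of all genes.

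The list of TGF-β receptors and SMADs, with ZFYVE9, a SMAD anchor, had 6 genes, and all were found. Their median log2 ratio was 0.22, against -0.012 over the 11081 genes, and 5 of 6 were higher after BS008, against 49.2% of all genes. The counting intervals of TGFBR1, with 377 and 389 reads, and of SMAD3 included a ratio of 1. TGFBR2 had 2714 and 3932 reads, a log2 ratio of 0.58, SMAD4 1462 and 1866, a ratio of 1.32 (1.23 to 1.42), and ZFYVE9 1471 and 1792, a ratio of 1.26 (1.18 to 1.35). SMAD3, to which βII-spectrin is an adaptor, had 821 and 856 reads, a ratio of 1.08 (0.980 to 1.19), and SMAD2, the member with a lower value, 1355 and 1163.

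Factors that cleave and polyadenylate mRNA act where a transcript ends, and 17 of the 18 listed were found. Of these, 13 were lower after BS008 and 4 higher, with a median log2 ratio of -0.38, against 50.8% of all genes lower and a median of -0.012. Past 2-fold lower were 3 of the 17, against 5.69% of all genes, and none was past 2-fold higher. CPSF6, a subunit of cleavage factor I, had 4262 and 1852 reads, a ratio of 0.450 (0.426 to 0.475). CSTF3, of the cleavage stimulation factor, had 4168 and 1818 reads, a ratio of 0.452 (0.427 to 0.477), and PABPN1, the nuclear poly(A) binding protein, 6337 and 2767, a ratio of 0.452 (0.432 to 0.473). NUDT21, the partner of CPSF6 in cleavage factor I, had 3498 and 3397 reads, a ratio of 1.01 (0.959 to 1.05), which counts among the 4 higher though its interval includes 1. The part of these genes in the reads on row 35 was not tested.

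**Figure D4:**
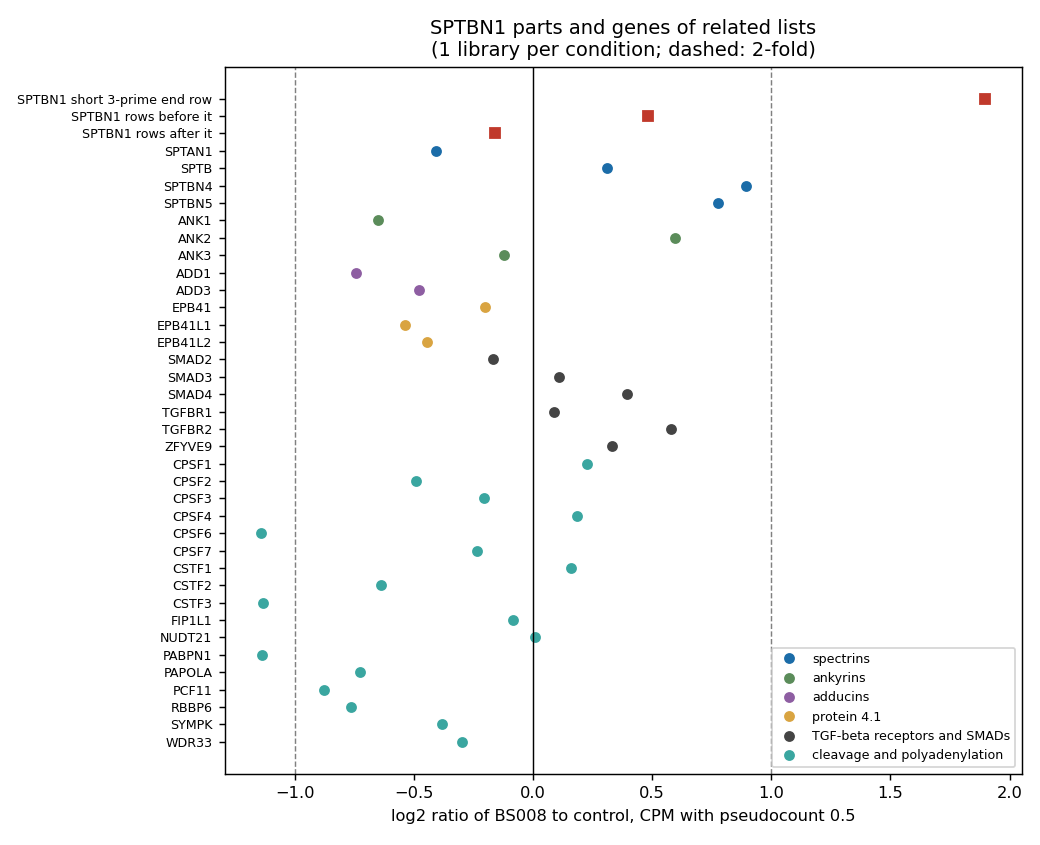
Log2 ratio of BS008 to control on CPM values with a pseudocount of 0.5, for 3 parts of SPTBN1 (squares) and for the genes of related lists with at least 10 reads in either library (points, coloured by list). The short terminal row of SPTBN1 stands at 1.90, SPTAN1 at -0.41, and CPSF6, CSTF3 and PABPN1 lie beyond the dashed line of a 2-fold decrease.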

How the data were processed

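RNA of Huh-7 cells was sequenced from 1 control and 1 BS008 library made with an Illumina mRNA-seq kit. Groups were taken from the treatment label of each sample, because the treatment protocol of both names BS008. The authors deposited raw counts of reads per exon, without normalization. The deposited RPKM values, made by the authors, scale these counts by exon length and library total, and recomputing them gave differences of at most 4.7e-06. The submitters' processing notes name hg19. The aligner, counter, annotation and strand setting are not given in the sources used here. Reads on a plus strand exon may therefore include antisense reads. A read that crosses exons may also have been counted on each of them. In that case the intervals of summed rows are too narrow even for counting.

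Ratios are reads per library total, with exact (Clopper-Pearson) 95% intervals. Shares carry Wilson intervals. Log2 ratios use CPM with a pseudocount of 0.5, and rows or genes with at least 10 reads in either library were compared. No test was made. The members, lists and comparisons were chosen with earlier results of these data known. Other genes, and the isoform of each row, were matched to GENCODE release 29 (GRCh38) by exon and intron lengths on the same chromosome and strand, which found 14913 of 19969 protein-coding genes; CLP1, SERPINA1 and PECAM1 were not found. Some genes of the spectrin list are not reported here. Named rows were row 35, 3 on either side, the first and last row and the 3 highest and 3 lowest; rows 6, 9 and 10 and the rows at the 5′ end were added after their values were seen. The ratio script was tested on simulated data. Of the further marker genes, AFP, APOA1, APOB, TTR, FGB and HNF4A had from 242 to 331956 reads in a library. Python 3.11.15, numpy 2.4.6, scipy 1.17.1, pandas 2.3.3, matplotlib 3.10.9 and edgeR 4.0.16 in R 4.3.3 (TMM factors) were used. Alternatives were other scalings, row sets, pseudocounts, count minimums, fold limits and windows. Protein and hg19 genome sequences were not used here.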

Additional observations from a re-analysis of the deposited data

How the results depend on the processing

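No alternative turned the direction of a log2 ratio or of the difference in share. With TMM factors over all exon rows, the log2 ratio was 0.57 for the whole gene, 0.53 for the rows before row 35 and -0.11 for those after it, and without mitochondrial rows the whole gene stood at 0.54. The median over rows gave 0.44 before row 35. Row 35 less the reads of row 38, an alternative added after seeing the data, gave 2.39. The long 5′ rows together were past 2-fold at -1.02 and not with TMM factors, at -0.995. The share of row 35 in control and BS008-treated cells was 11.3% and 35.5% without row 39, and 38.4% and 72.0% against row 39 alone. It was 10.5% and 33.5% from the deposited RPKM values averaged over rows. Against the 10 rows before row 35 it was 24.2% and 45.8%, and after taking off the reads of row 38 it was 21.3% and 61.6%. Exon rows at least 2-fold higher or lower were 4902 and 4977 as reported, 5347 and 4370 with TMM factors, and 11471 and 11189 at pseudocount 0.1. They were 3020 and 3017 at pseudocount 1, and 15150 and 18306 when the limit was 1.5-fold. Which of the 2 counts was larger thus depended on the setting. With 3 or 10 rows on either side or a minimum of 50 reads, the pattern of row 35 was held by 169, 146 and 214 rows. These were 0.297%, 0.385% and 0.313% of the 56840, 37925 and 68379 rows searched, against 0.314% as reported.

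No paired analysis was possible because each condition has 1 library, so leaving 1 out gives no value. Differences between cultures, between library preparations and in DMSO, which the BS008 label does not give, cannot be told apart from BS008. Depth limits rows 1 to 4 most.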
